A study of Mus musculus with 4 samples.

Results

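The genes described here are 10 AAA ATPases related to Atad2, namely Vcp, Nvl, Spata5, Spata5l1, Nsf, Vps4b, Atad1, Atad3a, Yme1l1 and Lonp1. They were listed by family membership, though with earlier results of these data known. All 10 were found among the 20439 genes that could be named in the deposited tables and among the 9841 genes that were tested. The question put to them was whether their transcripts rose when Atad2 fell. The data measure RNA levels only, and whether any of these genes compensates for Atad2 was not tested.

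RNA was sequenced from mouse 46C ES cells in which the endogenous Atad2 gene carries a C-terminal TAP tag. All the cells come from 1 chosen clone, were grown in serum and LIF on gelatin, and carry the tag in both conditions. The 4 libraries are si-ctrl 1 and si-ctrl 2, transfected with the inactive scrambled siRNA, and si-Atad2 1 and si-Atad2 2, transfected with siRNA against Atad2. The labels call the 2 libraries of a condition replicates. A figure legend of the study states that 2 active siRNAs were used and that every RNA sample went through sequencing 2 times, so the libraries of a condition may be repeat runs of 1 RNA. Which siRNA went into which si-Atad2 library is not given in the sources used here. The p-values therefore measure only the spread between these libraries, which may be technical. The authors processed the libraries numbered 1 together and those numbered 2 together (pair 1 and pair 2, 1 run each), and levels are in FPKM, that is fragments per kilobase of transcript relative to library size. The tables hold no read counts, and about 43000000 to 46400000 fragments per library were estimated from how wide the authors' intervals are. The 9 ES cell markers examined, Pou5f1, Nanog and Sox2 among them, were each above 1 FPKM in every library, with a summed level of 3504 and 3509 FPKM in si-ctrl and 3293 and 3293 FPKM in si-Atad2. Of the markers of other cell types, Col3a1 and Postn of feeder fibroblasts, Afp of endoderm and Neurog2 of neural cells were below 0.1 FPKM in all 4 libraries. Others were at 1 FPKM or more in every library, namely 2 of 5 feeder, 1 of 6 endoderm, 2 of 4 neural and 1 of 4 mesoderm markers. Highest among these was Thy1 of feeder fibroblasts, at 6.70 and 6.23 FPKM in si-ctrl and 5.56 and 6.75 FPKM in si-Atad2. Whether such cells were present was not tested. The trophoblast markers, of which Tfap2c is the most abundant here and is also made by ES cells, summed to 28.1 and 27.9 FPKM in si-ctrl against 19.5 and 23.4 FPKM in si-Atad2, and any part of this in the results below was not tested.

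AAA ATPases (ATPases associated with diverse cellular activities) assemble into rings that use ATP to pull proteins through a central pore or to take complexes apart. Each ATPase module binds the phosphates of ATP with a glycine-rich loop, the Walker A motif, which ends in glycine, lysine and serine or threonine. Atad2 joins such modules to a bromodomain that binds acetylated histones and acts on chromatin, whereas its relatives work on ubiquitylated proteins, preribosomes, SNAREs, ESCRT-III filaments and mitochondrial proteins. Some of them, Vcp and Nsf for instance, carry a pair of ATPase modules.

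The DNA that encodes this loop is shown for Atad2, for Vps4b, the member whose level rose, and for both modules of Vcp and of Nsf. The stretches of 24 bases were read from GRCm38 with the coding exons of GENCODE vM21, are written 5′ to 3′ on the coding strand, which is the minus strand in each of them, and have the last 9 bases, for glycine, lysine and serine or threonine, in capitals.
Atad2, exon 12, chr15:58115807-58115830: ggaccacctggaactGGAAAAACC
Vps4b, exon 6, chr1:106780602-106780625: ggaccaccaggaacaGGAAAATCT
Vcp, first module, exon 7, chr4:42988717-42988740: gggcctcctgggacaGGGAAGACC
Vcp, second module, exon 13, chr4:42983484-42983507: ggacctcctggctgtGGGAAAACC
Nsf, first module, exon 9, chr11:103882886-103882909: ggaccccctggttgtGGTAAAACT
Nsf, second module, joined across exons 14 and 15, chr11:103859006-103861893: gggcctcctcacagcGGGAAGACT

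Vps4b shared 20 of these 24 bases with Atad2, the most of any member, and the second module of Nsf shared 14, the fewest. The loops of Vcp shared 18 and 19 bases, and those of Nvl, Spata5, Atad1, Atad3a, Yme1l1 and Lonp1 shared 16 to 18. Spata5l1 has no coding transcript in GENCODE vM21, so none was read for it. These counts describe the annotated loops only and are no measure of relatedness to Atad2. The RNA data do not bear on them.

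Atad2 itself, the target, stood at 34.1 and 36.0 FPKM in si-ctrl 1 and si-ctrl 2 and at 10.1 and 13.0 FPKM in si-Atad2 1 and si-Atad2 2. The remaining level was 29.6% of its control in pair 1 and 36.2% in pair 2. Its mean log2 ratio of −1.53 (95% interval −1.70 to −1.36) was the lowest of all 9841 genes tested (limma with Benjamini-Hochberg adjustment over all genes, adjusted p = 2.127e-06). All log2 ratios are of FPKM plus 1, si-Atad2 over si-ctrl within a pair, and so understate the change of low genes.

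Atad2b, the paralog of Atad2 that also has a bromodomain, was not called. It was at 13.1 and 13.3 FPKM in si-ctrl against 13.6 and 12.1 FPKM in si-Atad2, so the libraries overlapped. The mean log2 ratio was −0.04 (95% interval −0.20 to 0.13, limma adjusted p = 0.855), and a rise of more than 1.09-fold lies outside this interval.

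Of the 10 related AAA ATPases, only Vps4b rose past the threshold of 0.05 on the limma adjusted p, none fell, and 9 were not called. Over all genes tested, 1.76% were called higher, 0.518% lower and 2.28% in either direction, so the single call among 10 genes is a value for Vps4b and says nothing of the family as a whole. Without adjustment, 4 members had a limma p under 0.05, against 16.3% of all genes. The members' median log2 ratio was −0.01, beside −0.01 for all genes tested. Their summed level was 368.7 and 376.2 FPKM in si-ctrl and 374.6 and 368 FPKM in si-Atad2.

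**Figure D1:**
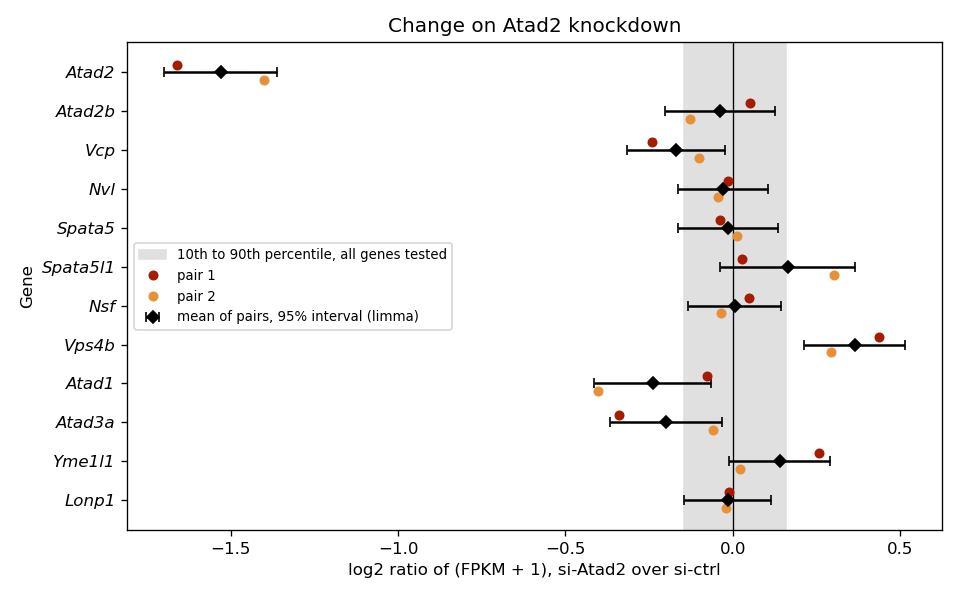
Log2 ratio of FPKM plus 1 (horizontal axis, si-Atad2 over si-ctrl) of Atad2, Atad2b and the 10 related AAA ATPases (vertical axis), with each pair as a circle, the mean as a diamond and its 95% limma interval as a bar; the grey band spans the 10th to 90th percentile of all genes tested, −0.15 to 0.16. Atad2 lies far to the left at −1.53, and Vps4b at 0.36 is the member whose interval lies wholly above 0.

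In the control cells the members spanned a wide range of levels, here compared per length of transcript. The mitochondrial proteases were the most abundant, Lonp1 at 76.2 and 72.7 FPKM and Yme1l1 at 62.8 and 70.8 FPKM in si-ctrl 1 and 2. Nvl, Nsf, Vcp, Atad3a, Atad1, Vps4b and Spata5 followed in this order, and Spata5l1 was the lowest at 2.92 and 2.50 FPKM. The Spata5l1 value comes from a transcript that ends short of the RefSeq gene. Between neighbours in this order, the control values of Atad3a and Atad1 overlapped and those of the other neighbours did not. Atad2 in control cells lay within the same range, overlapping Vcp.

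**Figure D2:**
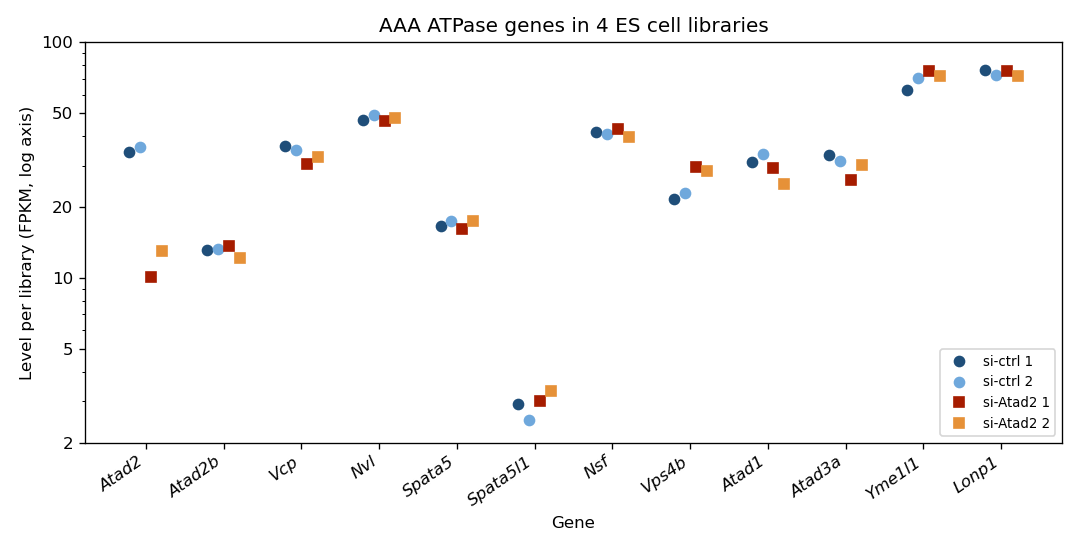
Level of each gene (horizontal axis) in the 4 libraries (vertical axis, FPKM, log scale), with circles for si-ctrl and squares for si-Atad2. The squares of Atad2 lie at 10.1 and 13.0 FPKM, well under its circles, those of Vps4b lie above its circles, and the values of Nvl, Spata5, Nsf and Lonp1 overlap.

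Vps4b takes ESCRT-III filaments apart in membrane scission, as in endosomal sorting and the last step of cell division. Its level was 21.5 FPKM in si-ctrl 1, 23.0 in si-ctrl 2, 29.5 in si-Atad2 1 and 28.4 in si-Atad2 2. Both si-Atad2 libraries were above both si-ctrl libraries, and the authors' intervals, 20.8 to 22.3 and 22.2 to 23.8 FPKM in si-ctrl against 28.6 to 30.4 and 27.6 to 29.3 FPKM in si-Atad2, did not overlap between conditions. These intervals cover the error within a library only, and those of Vcp, which was not called, did not overlap either. On the log2 scale the rise was 0.44 for the first pair and 0.29 for the second, a mean ratio of 0.36 (95% interval 0.21 to 0.52), a 1.29-fold rise (95% interval 1.16 to 1.43) with a limma adjusted p of 0.0189. Ranked by log2 ratio, Vps4b was 158th from the top of the 9841 genes tested.

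The Vps4b values rest on 1 transcript of 3272 bases, uc007cgz.2, at chr1:106770788-106796725 (GRCm38), which is named through Vps4b being the only coding gene at that locus, and on an estimated 3190 to 4407 fragments per library. The direction held in every setting tried, but the call passed in 10 of 16 alternative tests, with an adjusted p from 2.265e-06 to 0.33. A fit with a library left out also drops the replicate block, and the call was lost in such fits without si-ctrl 1 (log2 ratio 0.32, adjusted p = 0.33) and without si-ctrl 2 (0.41, adjusted p = 0.151), while it passed with the block dropped and all libraries kept (0.36, adjusted p = 0.030). It was also lost on removal of the trend with GC content (0.34, adjusted p = 0.0688). The GC content of Vps4b is 41.7%, under the median of 49.8% over all genes, and across genes the log2 ratio had a Spearman correlation with GC content of −0.28 in pair 1 and 0.09 in pair 2.

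**Figure D3:**
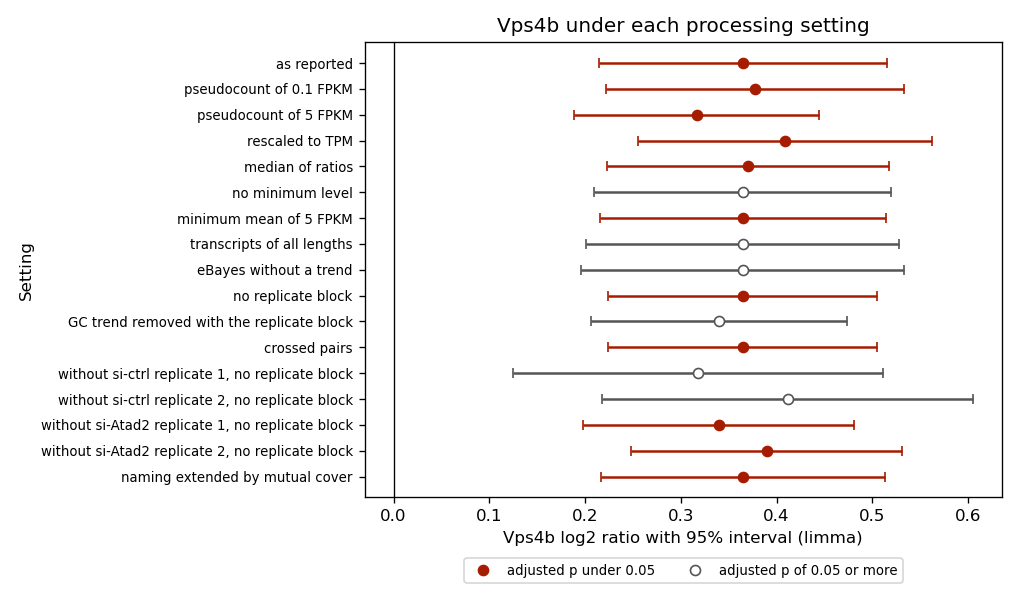
Vps4b log2 ratio (horizontal axis, si-Atad2 over si-ctrl) with its 95% limma interval under each processing setting (vertical axis), filled red where the adjusted p was under 0.05 and open grey otherwise. Every interval lies above 0, from ratios of 0.32 to 0.41, while 6 of the 16 alternatives leave the adjusted p above the threshold.

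The ESCRT-III subunits on which Vps4b acts gave no call. Of 12 ESCRT-III and Vps4 regulator genes listed, 9 were tested and none was called by limma, also none at an unadjusted p under 0.05, and their median log2 ratio was 0.03. Chmp2b, an ESCRT-III subunit that recruits Vps4, was highest in the list, at 13.9 and 14.3 FPKM in si-ctrl and 15.8 and 15.2 FPKM in si-Atad2 (log2 ratio 0.13, limma adjusted p = 0.418). Chmp4c, an ESCRT-III subunit of the abscission checkpoint, was lowest, at 12.1 and 12.7 against 11.0 and 11.6 FPKM (log2 ratio −0.12, adjusted p = 0.442). Vps4a, the close paralog of Vps4b, was named only under a looser rule chosen after seeing the data, and stood at 11.3 and 11.0 FPKM in si-ctrl against 11.7 and 10.9 FPKM in si-Atad2 (log2 ratio 0.02, limma adjusted p = 0.939). Its libraries overlapped, with a 95% interval of −0.14 to 0.17.

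**Figure D4:**
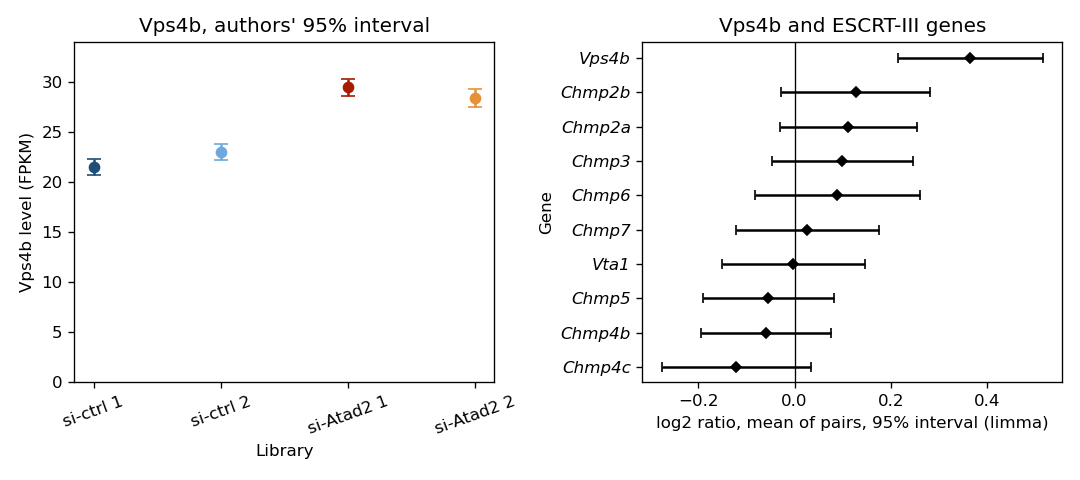
Left, Vps4b level (vertical axis, FPKM from 0) in each library (horizontal axis) with the authors' 95% interval as the bar; right, mean log2 ratio with its 95% limma interval (horizontal axis) for Vps4b and the 9 ESCRT-III and Vps4 regulator genes tested (vertical axis). Vps4b rises from 21.5 and 23.0 to 29.5 and 28.4 FPKM, and the intervals of the 9 other genes all span 0.

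Among the members that act on ubiquitylated proteins and SNAREs, neither was called. Vcp, the segregase that extracts ubiquitylated proteins for degradation, was at 36.2 and 34.9 FPKM in si-ctrl and 30.5 and 32.5 FPKM in si-Atad2. Both si-Atad2 libraries were the lower ones, at a mean log2 ratio of −0.17 (95% interval −0.32 to −0.02, limma adjusted p = 0.227). Nsf, which disassembles SNARE complexes after membrane fusion, was at 41.5 and 40.8 FPKM in si-ctrl and 42.9 and 39.8 FPKM in si-Atad2. Its libraries overlapped, with a mean log2 ratio of 0.01 (95% interval −0.13 to 0.15, adjusted p = 0.974). Vcp overlaps the gene 1700022I11Rik on the opposite strand, and since use of the strand in counting is not stated, reads of the pair cannot be told apart.

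The genes that work with Vcp and Nsf gave 1 call. Of 28 Vcp cofactors and pathway genes listed, 23 were tested and none was called by limma. Of the 23, 4 had an unadjusted limma p under 0.05, beside 16.3% of all genes, and the median log2 ratio was −0.04. Derl2, a channel protein of endoplasmic reticulum degradation, had the highest log2 ratio at 0.20 (adjusted p = 0.256), and Ubxn2a, a UBX-domain cofactor of Vcp, the lowest at −0.26 (adjusted p = 0.112). Of 16 SNARE and adaptor genes, 14 were tested, 1 was called higher and none lower, beside 1.76% and 0.518% of all genes. Their median log2 ratio was −0.03. The gene called was Gosr2, a SNARE of Golgi transport, which rose from 25.7 and 24.8 FPKM in si-ctrl to 32.9 and 32.6 FPKM in si-Atad2, a 1.28-fold change (95% interval 1.16 to 1.42, limma adjusted p = 0.0139). With the block dropped, its call was lost without si-ctrl 1 (log2 ratio 0.39, adjusted p = 0.188) and without si-ctrl 2 (0.34, adjusted p = 0.257), beside a log2 ratio of 0.36 with all libraries.

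None of the AAA ATPases of ribosome assembly was called. Nvl, a nucleolar factor of large-subunit maturation, was at 46.7 and 49.3 FPKM in si-ctrl and 46.3 and 47.8 FPKM in si-Atad2, with overlapping libraries and a log2 ratio of −0.03 (95% interval −0.16 to 0.11, limma adjusted p = 0.865). Spata5, which releases a shuttling factor from cytoplasmic preribosomes, was at 16.7 and 17.4 against 16.2 and 17.5 FPKM, also overlapping, with a log2 ratio of −0.01 (95% interval −0.16 to 0.14, adjusted p = 0.947). A rise of more than 1.08-fold for Nvl, or of more than 1.1-fold for Spata5, lies outside these intervals. Rescaled to TPM, the upper limits of the log2 ratio were 0.14 for Nvl and 0.18 for Spata5, so these ceilings depend on the scaling.

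The summed level of Spata5 was split differently among its 3 transcripts in 1 library. Transcript uc008pau.2 made up 40.5% of the Spata5 level in si-ctrl 2, against 15.1% in si-ctrl 1, 13.3% in si-Atad2 1 and 15.2% in si-Atad2 2. Transcript uc008pav.2 took 38.4% in si-ctrl 2 and 70.3%, 73.6% and 63.6% in the same other libraries. The odd library is thus a control, and the transcripts, of 2907 and 2910 bases, share a locus, where reads common to both cannot be told apart. Spata5 also overlaps the coding gene Nudt6 on the opposite strand.

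Spata5l1, the relative of Spata5 in the same assembly pathway, was the member with the least depth, an estimated 122 to 173 fragments per library over 1 transcript of 1321 bases. It was at 2.92 and 2.50 FPKM in si-ctrl and 2.99 and 3.32 FPKM in si-Atad2, so both si-Atad2 libraries were higher, by 0.03 in pair 1 and 0.30 in pair 2 on the log2 scale. The mean of 0.16 (95% interval −0.04 to 0.37, limma adjusted p = 0.421) was not past the threshold. A rise of up to 1.29-fold in FPKM plus 1 lies within the interval. At this low level that understates a rise in FPKM, where si-Atad2 2 stood at 133% of si-ctrl 2. With a pseudocount of 0.1 FPKM the log2 ratio was 0.21 (95% interval −0.05 to 0.47). GENCODE vM21 lists the gene as a processed transcript, whereas RefSeq lists it as protein coding. The measured transcript lies in chr2:122630625-122632704, while the RefSeq gene runs on to 122636478. The rest of the RefSeq gene is thus not covered by these values.

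Of 12 assembly factors that work beside Nvl and Spata5, 9 were tested and none was called by limma. Of the 9, 1 had an unadjusted limma p under 0.05, beside 16.3% of all genes, and the median log2 ratio was −0.09. Exosc10, the nuclear exosome nuclease, was highest at 0.02 (adjusted p = 0.893). Wdr74, a partner of Nvl on preribosomes, was lowest, going from 64.4 and 66.2 FPKM in si-ctrl to 54.9 and 58.4 FPKM in si-Atad2 (log2 ratio −0.20, adjusted p = 0.116).

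None of the 4 mitochondrial members was called by limma. An unadjusted limma p under 0.05 was found for 2 of them, Atad1 and Atad3a, beside 16.3% of all genes. Atad1, which extracts mislocalised tail-anchored proteins from the outer membrane, was at 30.9 and 33.5 FPKM in si-ctrl and 29.3 and 25.1 FPKM in si-Atad2. The si-Atad2 libraries were the lower ones, mostly in pair 2 (log2 ratio −0.08 and −0.40, mean −0.24 with a 95% interval of −0.41 to −0.06, limma adjusted p = 0.157). Atad3a, an inner membrane protein of mitochondrial organisation, was at 33.3 and 31.4 FPKM against 26.1 and 30.1 FPKM. Here the difference lay mostly in pair 1 (log2 ratio −0.34 and −0.06, mean −0.20 with a 95% interval of −0.37 to −0.03, adjusted p = 0.215).

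Yme1l1, the inner membrane protease that faces the intermembrane space, was at 62.8 and 70.8 FPKM in si-ctrl and 75.3 and 71.8 FPKM in si-Atad2. The si-Atad2 values were higher by 0.26 in pair 1 and 0.02 in pair 2 on the log2 scale, a mean of 0.14 (95% interval −0.01 to 0.29, limma adjusted p = 0.353). The controls differed from each other by 0.17 on this scale, more than the libraries of pair 2. Lonp1, the matrix protease, was at 76.2 and 72.7 against 75.6 and 71.7 FPKM, with overlapping libraries and a log2 ratio of −0.01 (95% interval −0.15 to 0.12, adjusted p = 0.932).

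Of 16 other genes of mitochondrial quality control, 14 were tested and none was called by limma. Of the 14, 2 had an unadjusted limma p under 0.05, beside 16.3% of all genes, and the median log2 ratio was −0.06. None was above 0 in both pairs and 10 were below 0 in both, beside 28.8% and 34% of all genes. Among the ribosome assembly factors 1 was above and 6 were below in both pairs, of 9 tested. For the Vcp cofactors these counts were 3 and 10 of 23, and for the SNARE genes 5 and 4 of 14. The ESCRT-III genes had 3 and 3 of 9, and the other AAA proteins described below 9 and 9 of 26. Hspd1, the matrix chaperonin, was lowest, at 206 and 218 FPKM in si-ctrl against 188 and 186.6 FPKM in si-Atad2 (log2 ratio −0.18, adjusted p = 0.141). Pmpca, a subunit of the presequence peptidase, was highest at 0.09 (adjusted p = 0.709).

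Counting all 10 members by whether the libraries of the conditions overlapped, 3 were higher in si-Atad2 (Vps4b, Yme1l1 and Spata5l1), 3 were lower (Vcp, Atad1 and Atad3a) and 4 overlapped. Over all genes tested, 22.6% were higher and 26.7% lower without overlap. For a single gene an exact permutation test of 2 libraries against 2 cannot go below a two-sided p of 0.333, so calls come from limma, which pools the spread over genes. Of the 9 members not called, 3 had an interval below 0 and 6 had one that spans 0. The highest upper limit was a 1.29-fold rise in FPKM plus 1, for Spata5l1, which understates its limit in FPKM.

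Beyond the 10, 34 other AAA proteins were listed, of which 26 were tested, with a median log2 ratio of 0.00. Of the 26, 1 was called higher and none lower, beside 1.76% and 0.518% of all genes. The gene called was Tor1b, a torsin of the endoplasmic reticulum and nuclear envelope, which rose from 9.94 and 9.85 FPKM in si-ctrl to 12.7 and 13.6 FPKM in si-Atad2, a 1.30-fold change (95% interval 1.16 to 1.45, limma adjusted p = 0.021). In the fits without the block, the call of Tor1b was lost on leaving out si-ctrl 1 (log2 ratio 0.38, adjusted p = 0.316) or si-ctrl 2 (0.37, adjusted p = 0.313), beside a log2 ratio of 0.38 with all libraries. Afg1l, a mitochondrial AAA protein also called Lace1 and named here after its values were seen, had the highest log2 ratio of the list, 0.41, but with 0.62 in pair 1 and 0.21 in pair 2 and an adjusted p of 0.052. Over the 6 lists of pathway genes and other AAA proteins together, 2 of 95 tested genes were called, both higher, which is 2.11% beside 2.28% of all genes.

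**Figure D5:**
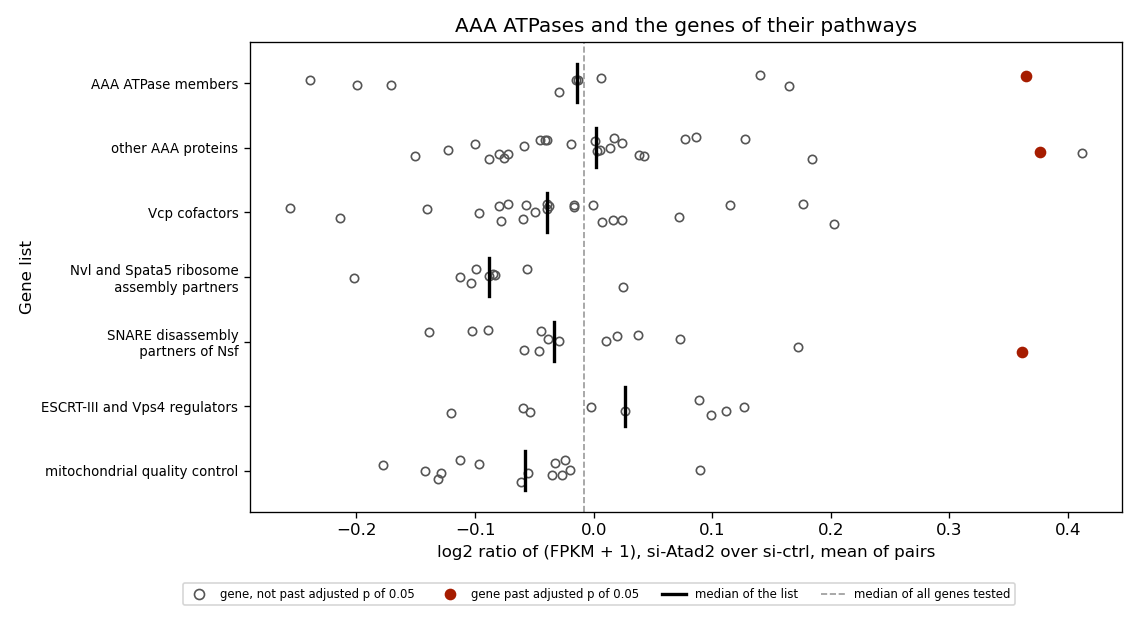
Mean log2 ratio of each gene tested (horizontal axis, si-Atad2 over si-ctrl) by list (vertical axis), filled red where the limma adjusted p was under 0.05, with the median of each list as a black line and that of all genes as a dashed line. The called genes are Vps4b, Tor1b and Gosr2, and the medians lie between −0.09 and 0.03.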

How the data were processed

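RNA-seq of 4 libraries of 46C ES cells was analysed, grouped by the sample labels. The authors' deposited FPKM values, with a 95% interval, come from TopHat and Cuffdiff per the submitters' processing notes, with versions not given in the sources used here. The study's supplement names Bowtie. Each UCSC transcript was entered as its own gene. The labels name mm9. GRCm38 was used, and 58.5% of the 26306 loci share an end with its annotation. The same share was not computed for mm9, so this value alone does not decide between the builds. Of the 8 deposited tables, 4 hold the authors' own tests of 1 library against 1 library and were not used.

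Of 59120 transcripts, 14666 took the gene of a GENCODE vM21 transcript at their locus with a length within 3 bases, 28524 the only coding gene at the locus, and 15930 had no name. FPKM of transcripts of 200 bases or more were summed per gene. The log2 ratio of FPKM plus 1 was taken within each run of the authors, which makes the replicate number a block, and genes with a mean of at least 1 FPKM were tested with limma (lmFit, eBayes with a trend, Benjamini-Hochberg adjustment, threshold 0.05). Intervals of 95% are limma's and unadjusted. Count models were not applied to FPKM. Fragments behind a level were estimated from the authors' interval, as (2 × FPKM / half-width) squared, and cover counting error only. On simulated data with 200 changed genes of 9841, the test recovered 76.5% of 1.25-fold changes with 22 false calls, and 100% of 1.5-fold changes with 9. The simulated noise was normal and drawn from the standard errors of the same limma fit. These shares therefore do not measure the power or the false calls in the real libraries.

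The members and lists were chosen with earlier results of these data known. Named are the 10 members, Atad2 and Atad2b, and of each list the genes past the threshold, or else the highest and the lowest log2 ratio. Alternatives were pseudocounts of 0.1 and 5 FPKM, TPM, median of ratios, no minimum or 5 FPKM, all transcript lengths, naming by length alone, eBayes without a trend, no block, GC trend removal, crossed pairs and leaving out each library, the last together with no block. A looser naming, by mutual cover of at least 90%, was added after seeing the data. Software was limma 3.58.1 in R 4.3.3, and pandas 2.3.3, numpy 2.4.6 and matplotlib 3.10.9 in Python 3.11.15.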

Additional observations from a re-analysis of the deposited data

How the results depend on the processing

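A test with a library left out also drops the replicate block, here and below. Atad2 kept its direction in every alternative and its call in 16 of 17 tests, the exception being no minimum level (log2 ratio −1.53, adjusted p = 0.1129), where limma called 0 genes, with 1780 at an unadjusted p under 0.05. Vps4b kept its direction in all alternatives, and its call was lost with no minimum level (0.36, adjusted p = 0.247), with all transcript lengths (0.36, 0.163), with eBayes without a trend (0.36, 0.0514) and with the GC trend removed with the replicate block (0.34, 0.0688). Its log2 ratio ran from 0.29 to 0.44 when a library or a pair was left out. The count of changed genes, 224 as reported, was 366 in TPM (310 higher, 56 lower), 0 with no minimum level, 11 with all lengths, 38 with naming by length alone, 140 without the replicate block, 60 with the GC trend removed and 139 with crossed pairs, and 10 to 1873 with a library left out (21 without si-ctrl 1, 10 without si-ctrl 2, 720 without si-Atad2 1, 1873 without si-Atad2 2). The share of calls that were higher, 77.2% as reported, was 84.7% in TPM, 86.7% with the GC trend removed, 63.6% with all lengths, 60.5% with naming by length alone, 52.2% without si-Atad2 1 (376 higher, 344 lower), 59.6% without si-Atad2 2 (1117 and 756) and 90% without si-ctrl 2 (9 and 1). The number of members called, 1 as reported, was 0 with no minimum level, with all lengths, with naming by length alone (which names no Vps4b transcript), with eBayes without a trend and with the GC trend removed, and 0 to 3 with a library left out (0 without either control, 2 without si-Atad2 1, of them 1 lower, and 3 without si-Atad2 2, of them 2 lower). The pathway lists, 2 calls as reported, both higher, gave 0 with no minimum level, with all lengths and with the GC trend removed, 1, a lower call, with naming by length alone, and 0 to 12 with a library left out (0 without either control, 4 without si-Atad2 1, of them 2 lower, and 12 without si-Atad2 2, of them 4 lower). Tor1b and Gosr2 kept their direction throughout and their call in 11 of 16 tests each, losing it also with no minimum level, with all lengths and with the GC trend removed. The causes were not tested.

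Vcp was called lower without si-Atad2 2 (−0.22, adjusted p = 0.0186), Atad3a without si-Atad2 2 (−0.30, 0.0005318) and Atad1 without si-Atad2 1 (−0.35, 7.381e-05). In these fits and in those without a control, the lone library is assumed to vary like the other condition. Changes of sign were small: in TPM, Nvl 0.0051, Spata5 0.0198 and Lonp1 0.019; with the GC trend removed, Nsf −6.05e-05 and Lonp1 0.0078; by length alone, Lonp1 0.078. With a library left out, Atad2b was 0.041 without si-Atad2 2, Spata5 0.0137 and Nsf −0.0045 without si-ctrl 2. With a library or a pair left out, Atad2b ranged from −0.13 to 0.052, Nvl from −0.067 to 0.0092, Spata5 from −0.066 to 0.039, Nsf from −0.046 to 0.058 and Lonp1 from −0.053 to 0.023. The same replicate number comes from the authors' runs and not from shared cultures named in the labels. The departures from the group mean of libraries sharing a number correlated at −0.041 (Pearson, across genes), so the numbers are not shown to pair the libraries. Without the replicate block, Vps4b kept its call. Depth limits Spata5l1 most.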

Other observations

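The looser naming by mutual cover, chosen after seeing the data, adds listed genes that the tables otherwise leave unnamed, and those given here were picked after their values were seen. Vamp3, a SNARE of recycling endosomes that Nsf takes apart, was at 34.4 and 35.3 FPKM in si-ctrl, 16.5 FPKM in si-Atad2 1 and 32.4 FPKM in si-Atad2 2. The low level was thus found in 1 library, with a log2 ratio of −1.02 in pair 1 and −0.12 in pair 2 (limma adjusted p = 0.0523). Hspe1, the partner of the Hspd1 chaperonin, was at 196 and 203.3 FPKM against 182.4 and 175.1 FPKM (log2 ratio −0.16, limma adjusted p = 0.182). Rsl24d1, a factor that Spata5 removes from preribosomes, was at 56.0 and 56.9 FPKM against 49.7 and 50.1 FPKM (log2 ratio −0.17, limma adjusted p = 0.166). Neither Hspe1 nor Rsl24d1 passed the threshold. In each of them both si-Atad2 libraries were below both controls, beside 26.7% of all genes tested under the main naming. Of the other listed genes so added, Vamp3, Afg3l1 and Mtrex were also lower without overlap. Chmp1a and Wrnip1 were higher without overlap, and Spg7 and Vps4a overlapped.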
